A study of Mus musculus with 16 samples.

Results

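*Tenm4* RNA was 1 of the 4 RNAs with the most RNA–DNA interaction pairs in both tables of this study, and its pairs lay along chromosome 7, out to 49.7 Mb from its own gene. Its members are all lines of the 2 tables of significant interactions whose RNA name is *Tenm4*: 8679 of 1305107 pairs in Input and 11573 of 1415135 pairs in H3K27me3-RADIP, 1 of 10176 and 1 of 10660 RNA names. The gene was chosen by its number of listed pairs and the distance of their DNA ends in these same tables, so its pairs, bins and distances are given as a description, with no test.

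The samples were PGK12.1 mouse embryonic stem cells, an established line, crosslinked with 1% formaldehyde. In RADIP, RNA and nearby DNA are joined through a bridge adaptor inside fixed chromatin, and the fragments are then pulled down with an antibody, here against H3K27me3, the trimethylated lysine of histone H3 that Polycomb repressive complexes lay down. H3K27me3-RADIP is the pulled-down material and Input is the same kind of ligated lysate that did not meet the antibody. The labels name 8 libraries per condition, more than the biological replicates that the methods describe, and the authors merged them into 1 table per condition, so no value below has a replicate error. The intervals given are 95% intervals for counting error only, and reads without molecular identifiers are not independent molecules. The tables list chromatin pairs, not expression: of 12 stem cell markers 7 had listed pairs, led by *Esrrb* (2388 in Input, 2500 in H3K27me3-RADIP) and *Tet1* (1302 and 1395), while *Pou5f1*, *Nanog*, *Tdgf1*, *Dppa4* and *Utf1* had none. Of 7 neural markers 5 were listed, with 425 and 692 pairs in all, and of 5 fibroblast markers only *Col1a1* was, with 7 pairs in H3K27me3-RADIP.

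*Tenm4* encodes teneurin-4, a large transmembrane protein of the teneurin family that binds latrophilin receptors on neighbouring cells and is known for its part in the wiring of neurons and in early embryonic development. The gene is long and made mostly of introns, so that unspliced transcripts stay near their template for some time. A pair in these tables records where one piece of RNA was when the chromatin was fixed, and a *cis* pair, with the DNA on the chromosome of the gene, far from the gene, therefore places the RNA, or chromatin carrying it, beside a distant stretch of the same chromosome. Each *Tenm4* line gives a 25-base window for the RNA tag and another for the DNA tag on GRCm38 (mm10). The p-value and q-value of a line belong to 1 RNA with 1 DNA bin of 25 kb, and only bins with a q-value, the p-value corrected for multiple testing, up to 0.1 are listed.

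*Tenm4* (ENSMUSG00000048078.16) spans 96171246 to 96911093 of chromosome 7 (plus strand), 740 kb in a chromosome of 145 Mb, with 96.2 Mb before it and 48.5 Mb after it. The 25-base RNA windows that carried the most pairs in each library show what the RNA end of these pairs looks like. All 3 were intronic, and each sequence, read from the GRCm38 assembly of RefSeq on the plus strand, occurred once on the chromosome.
chr7:96231068-96231092: CGTCTGCATCTTGGGCCTCTTTGAA
chr7:96256650-96256674: TGGAATTCAAACCCAGGACCTCAGG
chr7:96677285-96677309: ACTCTCAAAGTGACAGGAAAGTGTT

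The first of these windows, 59.8 kb into the gene, had 11 Input pairs, in 8 DNA bins, and 7 in H3K27me3-RADIP, in 6 bins. The second, at 85.4 kb, had 13 pairs in 10 bins and 15 pairs in 14 bins, and 22 of its 25 bases are marked as repeat in the assembly. The third, at 506 kb, had 4 pairs in 4 bins and 12 pairs in 10 bins. No single window thus made up the signal: the 8679 Input pairs began at 7523 RNA positions and the 11573 H3K27me3-RADIP pairs at 9603. Pairs that repeated both tag positions of another pair were 6.52% and 9.51% of all.

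The RNA ends lay along nearly the whole transcribed gene and were almost all intronic. Introns held 8372 pairs in Input, 96.5% of them with an interval of 96.1 to 96.8%, and 11248 in H3K27me3-RADIP, 97.2% with an interval of 96.9 to 97.5%. Coding sequence held 133 and 142 pairs, other exon sequence 94 and 100, the 5′ UTR 60 and 63, and the 3′ UTR 20 and 20. Exons had 14.6 pairs per kb of annotation against 11.6 for introns in Input, and 15.5 against 15.6 in H3K27me3-RADIP.

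The start of the annotated gene was nearly empty of RNA ends. From the first annotated start to the base before the next one, 38.4 kb from 96171246 to 96209662, Input had 10 pairs (0.260 per kb) and H3K27me3-RADIP 24 (0.625 per kb). In the following 38.4 kb there were 986 (25.7 per kb) and 1183 (30.8 per kb). RefSeq places *Tenm4* starts at 96171244 and at 96211671, the later one past the annotated start at 96209663 that ends the sparse stretch. From 20 to 40 kb into the gene, before that later RefSeq start, there were already 68 and 65 RNA ends. The second stretch below thus does not mark where the listed RNA began. The 100 bases before each RefSeq start are shown for comparison, with CG dinucleotides in capitals.
chr7:96171144-96171243: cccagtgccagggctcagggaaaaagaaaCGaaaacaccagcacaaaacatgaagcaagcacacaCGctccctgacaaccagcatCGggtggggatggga
chr7:96211571-96211670: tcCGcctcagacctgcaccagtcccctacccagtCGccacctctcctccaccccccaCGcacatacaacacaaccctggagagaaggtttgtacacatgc

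Both 100-base stretches hold 3 CG dinucleotides. Downstream of the later start, RNA ends thinned toward the 3′ end, with a second rise inside the gene. The highest 20-kb window was the same in both libraries, 380 to 400 kb from the first start, with 531 Input pairs and 756 H3K27me3-RADIP pairs, against medians of 217 and 307 pairs per window. The first of 5 equal parts of the gene, counted from its 5′ end, held 24.4% (23.5 to 25.3%) of Input pairs and 24.5% (23.8 to 25.3%) of H3K27me3-RADIP pairs. The last part held 868 Input pairs, an interval of 9.39 to 10.7%, and 1131 H3K27me3-RADIP pairs, 9.77% (9.25 to 10.3%). The spread of RNA ends along the gene was thus similar in both tables, although H3K27me3-RADIP listed more pairs.

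**Figure D1:**
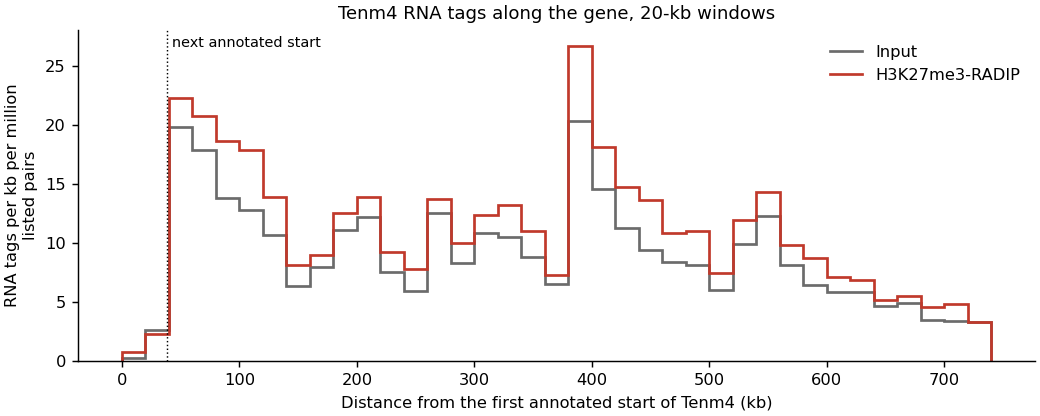
RNA tags of *Tenm4* pairs per kb and per 1000000 listed pairs of the table, in 20-kb windows from the first annotated start (kb), for Input (grey) and H3K27me3-RADIP (red). Both lines rise at the next annotated start (dotted), 38.4 kb into the gene, and share their highest window at 380 to 400 kb.

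The microRNA genes on the same strand within *Tenm4* are *Mir708* (96249424 to 96249532) and *Mir6394* (96305667 to 96305765). MicroRNAs are cut from such host transcripts as short hairpins. The mature miR-708 sequences from RefSeq, with the seed (bases 2 to 8) in capitals, are given because *Tenm4* RNA is their host transcript.
mmu-miR-708-5p: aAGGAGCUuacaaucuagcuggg
mmu-miR-708-3p: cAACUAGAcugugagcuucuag

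RNA tags of *Tenm4* pairs overlapped the *Mir708* gene 2 times in Input and 1 time in H3K27me3-RADIP, and the *Mir6394* gene 1 time and 0 times. Antisense genes are also annotated within *Tenm4*, of which *Gm15414* is the longest: its span from 96596652 to 96629069 held 447 and 660 tags on the strand of *Tenm4*.

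The listed pairs of H3K27me3-RADIP reached farther than those of Input. Pairs under 10 kb numbered 545 in Input and 588 in H3K27me3-RADIP, those of 10 to 100 kb 1539 and 1696, and those of 100 kb to 1 Mb 3700 and 4302. At 1 to 5 Mb there were 2215 and 2654. Over 5 Mb there were 680 and 2323. Pairs over 1 Mb were 33.4% (32.4 to 34.4%) of *cis* pairs in Input and 43.0% (42.1 to 43.9%) in H3K27me3-RADIP, and pairs over 5 Mb were 7.84% (7.29 to 8.42%) and 20.1% (19.4 to 20.8%). Over 20 Mb the shares were 1.26% and 7.87%. These shares cover listed pairs only: in bins over 5 Mb from the gene that both tables listed, the ratio of H3K27me3-RADIP to Input was 1.00, and it was 0.958 with unlisted bins at the highest number they could hold.

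Relative to the total of each table, *Tenm4* had 6650 pairs for every 1000000 listed pairs of Input and 8178 for H3K27me3-RADIP, a ratio of 1.23 (1.20 to 1.26). This ratio covers listed pairs only and was not recomputed with unlisted bins at their highest possible number. The 2894 additional pairs were not spread evenly. In the 109 bins of the gene and within 1 Mb of either end, of which 108 were listed in each table, 6478 pairs stood against 7214, a ratio of shares of the table totals of 1.03 (0.993 to 1.06). Bins 1 to 5 Mb from the gene gave 544 of the additional pairs and bins over 5 Mb from it gave 1604. Here and below, the distance of a bin is taken from its centre to the nearest end of the gene, and the 31 bins that overlap the gene count as gene.

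**Figure D2:**
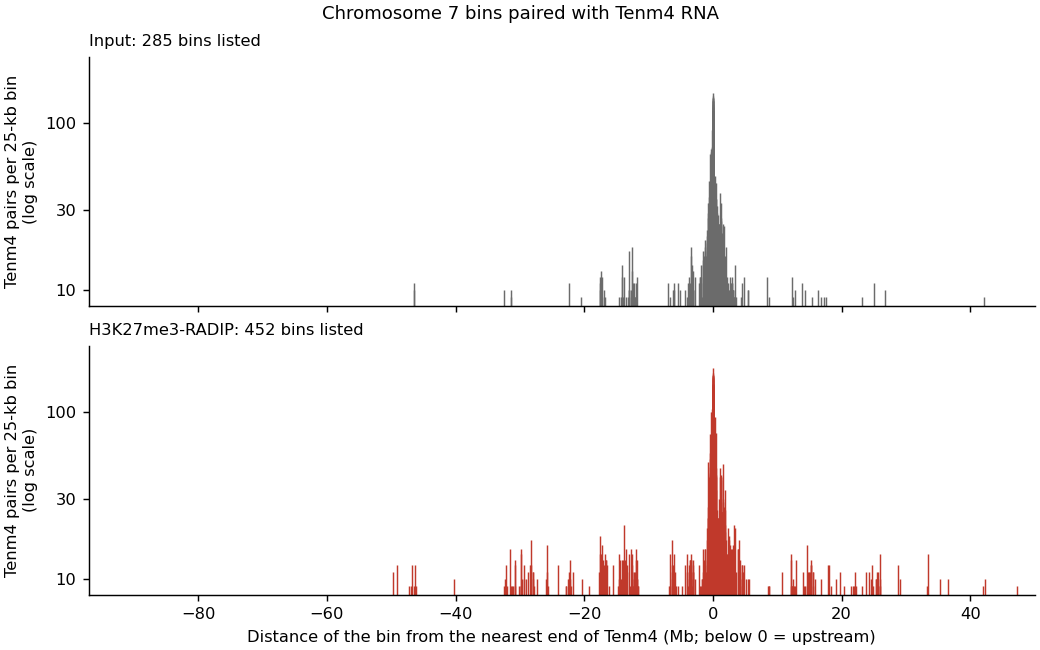
Pairs of *Tenm4* RNA per 25-kb bin of chromosome 7 (log scale, 1 line per listed bin) against the distance of the bin from the nearest end of the gene in Mb, upstream below 0, with all bins of the gene drawn at 0. Far bins are sparse in Input and denser in H3K27me3-RADIP, and no bin is listed more than 49.7 Mb upstream in either.

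Whether a bin was listed depended on a fixed number of pairs. The smallest listed *Tenm4* bin held 9 pairs in both tables, with a q-value of 0.0336 in Input and 0.0293 in H3K27me3-RADIP, and every bin size had a single q-value in each table. A bin that was not listed may therefore have held up to 8 pairs, and a bin found in one table only is not a bin without pairs in the other. Input listed 285 *Tenm4* bins, all in *cis*, and H3K27me3-RADIP 453, of which 452 in *cis*. Both tables shared 206 bins, which was 72.3% of the Input list and 45.6% of the *cis* list of H3K27me3-RADIP.

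Of the *cis* bins, 79 were listed in Input only (27.7%, 22.8 to 33.2%) and 246 in H3K27me3-RADIP only (54.4%, 49.8 to 59.0%). Over all RNAs, 24.2% of Input combinations (an RNA with 1 bin) were missing from the H3K27me3-RADIP list, and 33.9% of H3K27me3-RADIP combinations from the Input list. Most bins found in one table only were close to the limit: the median was 10 pairs for those in Input only (9 to 18) and 11 for those in H3K27me3-RADIP only (9 to 21), against 21.5 and 22 pairs for the shared bins. At most 10 pairs were held by 45 of the 79 and 122 of the 246.

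**Figure D3:**
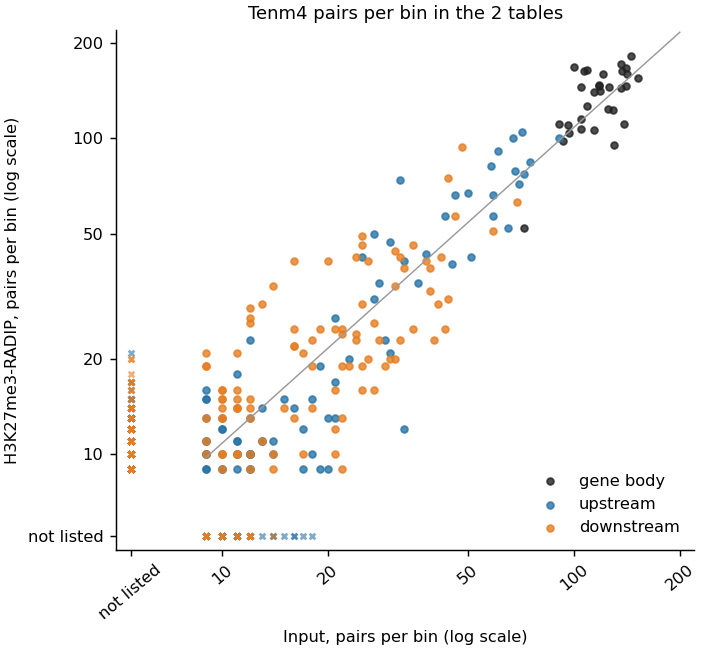
Pairs per 25-kb bin in Input (x axis) and H3K27me3-RADIP (y axis), both on log scales, for bins of the gene body (black), upstream (blue) and downstream (orange); dots are bins listed in both tables, crosses are bins listed in one, drawn at "not listed", and the line marks equal shares of the table totals. Crosses reach 18 pairs in Input and 21 in H3K27me3-RADIP, while the gene body lies between 52 and 183 pairs.

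Inside the gene all 31 bins were listed in both tables. They held 3672 Input pairs and 4198 H3K27me3-RADIP pairs, a ratio of shares of 1.05 (1.01 to 1.10), with medians of 118 and 144 pairs per bin. The lowest bin, 96175001 to 96200000, between the early starts, had 72 and 52 pairs. It was thus a target of *Tenm4* RNA although hardly any RNA end came from it. The highest Input bin, 96475001 to 96500000, had 152 pairs and 155 in H3K27me3-RADIP, and the highest H3K27me3-RADIP bin, 96550001 to 96575000, had 145 and 183.

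The bins beside the gene with the most pairs were upstream, in a stretch with no annotated protein-coding gene. The bin with the most Input pairs outside the gene, 95975001 to 96000000, had 91 Input pairs and 100 H3K27me3-RADIP pairs. That with the most H3K27me3-RADIP pairs, 96075001 to 96100000, had 71 and 105. The others among the top 5 of either list were also upstream, with 1 exception: a bin at *Gab2*, which encodes a docking protein of receptor signalling, and *Usp35*, a deubiquitinase (97300001 to 97325000), with 48 Input pairs and 94 H3K27me3-RADIP pairs.

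The 3 Mb before the gene and the 3 Mb after it differed in content. Upstream, the 119 bins held no annotated protein-coding gene, no RNA tag of any gene in either table, and no pair of any RNA other than *Tenm4*; their median GC content was 37.8%. Input listed 65 of them for *Tenm4* and H3K27me3-RADIP 55. Downstream, 119 bins overlapped 42 protein-coding genes, other RNAs were listed in 93 and 97 bins, and the median GC content was 44.7%. Input listed 91 of these bins and H3K27me3-RADIP 107. The part of gene content and base composition in the listing of bins was not tested.

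H3K27me3-RADIP listed fewer pairs than Input from 1 to 3 Mb upstream and more from 1 to 5 Mb downstream. From 1 to 3 Mb upstream, 343 pairs in 27 bins in Input stood against 191 pairs in 17 bins in H3K27me3-RADIP, a ratio of shares of 0.514 (0.428 to 0.615). If every bin listed in Input only had held 8 pairs in H3K27me3-RADIP, this ratio would be at most 0.815, and in the 13 bins listed in both it was 0.770 (0.615 to 0.964). From 1 to 5 Mb downstream, 955 pairs in 65 bins stood against 1628 pairs in 94 bins, a ratio of 1.57 (1.45 to 1.70), of at least 1.19 with unlisted bins filled in the same way, and of 1.23 (1.13 to 1.35) in the 55 shared bins. Both directions thus held under this bound, which does not count bins listed in neither table. Other RNAs in these downstream bins had 4131 and 4666 pairs, a ratio of 1.04 (0.999 to 1.09). By distance, however, their ratio was 1.29 (1.16 to 1.43) at 1 to 2 Mb, where that of *Tenm4* was 1.26 (1.14 to 1.39), then 1.14 (1.05 to 1.25) against 2.37 (1.96 to 2.89) at 2 to 3 Mb and 0.944 (0.893 to 0.997) against 2.28 (1.86 to 2.81) at 3 to 5 Mb. The values of *Tenm4* at 2 to 3 and 3 to 5 Mb rested on which bins were listed: in the 11 and 6 shared bins they were 1.12 (0.871 to 1.45) and 1.31 (0.930 to 1.86), and with unlisted bins at 8 pairs in Input 1.20 and 1.04. At 1 to 2 Mb the rise was thus shared by the other RNAs of the same bins.

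The step was not at the gene itself. Within 0.5 Mb upstream the ratio was 1.15 (1.06 to 1.24) and at 0.5 to 1 Mb upstream 0.900 (0.792 to 1.02). Within 0.5 Mb downstream it was 0.931 (0.841 to 1.03), and at 0.5 to 1 Mb 0.818 (0.714 to 0.936). Other RNAs in those bins had ratios of 0.833 (0.639 to 1.08) and 0.613 (0.526 to 0.713). At 2 to 3 Mb downstream 14 of 40 bins were listed in Input and 29 in H3K27me3-RADIP, with 147 and 378 pairs. At 3 to 5 Mb upstream Input had 237 pairs in 21 bins and H3K27me3-RADIP 260 pairs in 23 bins, of which 10 bins were shared, with a ratio of 0.852 (0.651 to 1.11) in them. Over all listed bins of that stretch the ratio was 1.01 (0.845 to 1.21), and for other RNAs it was 0.684 (0.545 to 0.857). Of these 34 listed bins 12 held no protein-coding gene, and others lay over *Dlg2*, a synaptic scaffold gene, *Rab30*, a small GTPase gene, or *Prcp*, a peptidase gene.

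The downstream genes that follow were singled out after their values were seen. Over *Myo7a*, the myosin of sensory hair cells, the bin 98075001 to 98100000 had 25 Input pairs and 46 H3K27me3-RADIP pairs, while the bin before it had 38 and 41. A bin at *Capn5*, a calpain protease gene, and *B3gnt6* (98175001 to 98200000) had 20 and 41. A bin at *Gucy2d*, a guanylate cyclase gene, and *Lrrc32*, which encodes a receptor that holds latent TGF-beta (98475001 to 98500000), had 25 and 49, and the next bin at *Lrrc32* had 13 and 30. A bin at *Wnt11*, a Wnt ligand gene (98825001 to 98850000), had 14 and 34, a ratio of shares of 2.24 with a lower bound of 1.17. A bin at *Mogat2* and another at *P4ha3* had 20 pairs each in H3K27me3-RADIP and were not listed in Input. Of the 55 shared bins from 1 to 5 Mb downstream, 37 had a higher share of their table in H3K27me3-RADIP and 18 a lower one. Lower ones included a bin at *Acer3*, a ceramidase gene (98200001 to 98225000), with 27 and 16 pairs, and a bin at *Uvrag* (98875001 to 98900000) with 18 and 14.

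**Figure D4:**
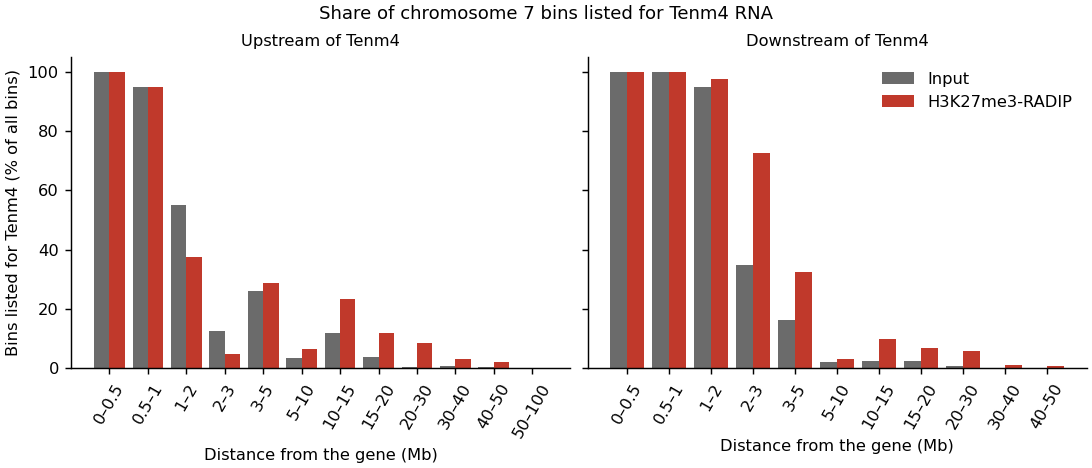
Share of all 25-kb bins (y axis, percent) listed for *Tenm4* RNA in distance windows from the gene (x axis, Mb), upstream and downstream, in Input (grey) and H3K27me3-RADIP (red). Upstream at 1 to 2 Mb 55.0% of bins were listed in Input and 37.5% in H3K27me3-RADIP, whereas downstream at 2 to 3 Mb it was 35.0% and 72.5%.

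Over 5 Mb from the gene, Input listed 64 bins with 666 pairs and H3K27me3-RADIP 210 bins with 2270 pairs, of 5389 such bins on the chromosome. The ratio of shares was 3.14 (2.88 to 3.43). This ratio rested on which bins were listed: with 8 pairs set in Input for each of the 190 bins listed in H3K27me3-RADIP only, it would be 0.958, and in the 20 shared bins, with 210 and 228 pairs, it was 1.00 (0.826 to 1.21). The shared bins were 31.2% of the Input list and 9.52% of the H3K27me3-RADIP list. Of the far bins, 44 (68.8%) were in Input only and 190 (90.5%) in H3K27me3-RADIP only. Over all RNAs, 62.7% of far *cis* combinations in Input and 90.9% of those in H3K27me3-RADIP were not listed in the other table, so that the shares of *Tenm4* were near those of RNAs at large.

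The far bins lay on both sides, 46 upstream and 18 downstream in Input and 139 and 71 in H3K27me3-RADIP. The farthest upstream bin was 46.4 Mb from the gene in Input and 49.7 Mb in H3K27me3-RADIP, and none of the 1847 bins over 50 Mb upstream was listed. Downstream the farthest were at 42.1 and 47.3 Mb, near the end of the chromosome. From 10 to 15 Mb upstream 24 of 200 bins were listed in Input and 47 in H3K27me3-RADIP, a larger share than in any farther window on either side. From 20 to 30 Mb upstream there were 2 and 34 of 400. In H3K27me3-RADIP 81 of the 210 far bins had a listed far bin directly beside them, and in Input 10 of 64.

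The far bins shared by both tables were mostly upstream, 18 of 20, and fell into a few stretches. Near 17.5 Mb upstream, at and beside *Ntrk3*, the gene of the neurotrophin receptor TrkC, 5 shared bins had 9 to 13 pairs in Input and 10 to 18 in H3K27me3-RADIP. Between 11.8 and 14.6 Mb upstream, 11 shared bins included *Fsd2*, *Hdgfl3*, *Bnc1*, a zinc finger gene, *Sh3gl3*, *Tmc3*, *Il16*, a cytokine gene, *Cemip*, a hyaluronan-binding protein gene, and *Arnt2*, a transcription factor gene. At *Bnc1* (81950001 to 81975000) there were 14 and 10 pairs, and at *Arnt2* (84350001 to 84375000) 12 and 13.

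The far bins with the most pairs were not always shared. In Input the highest was at *Tmc3*, *Stard5* and *Il16* (83625001 to 83650000, 18 pairs), followed by 83100001 to 83125000 (17 pairs), and neither was listed in H3K27me3-RADIP. In H3K27me3-RADIP the highest was at *Adamtsl3*, an extracellular matrix protein gene (82325001 to 82350000, 21 pairs, not listed in Input). Next were *Ntrk3* (78575001 to 78600000, 18 pairs, 11 in Input), *Igf1r*, the insulin-like growth factor receptor gene (67950001 to 67975000, 17 pairs, not listed in Input), and *Me3*, a mitochondrial malic enzyme gene (89775001 to 89800000, 17 pairs, not listed in Input). Of 3 bins with 16 pairs, those at 70325001 to 70350000 and at 78950001 to 78975000 held no protein-coding gene. The former was not listed in Input and the latter had 9 Input pairs.

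In gene and GC content the far bins of H3K27me3-RADIP were close to far bins in which any RNA was listed. Those of Input lay between such bins and all far bins. Of the 20 far bins shared by both tables, 65.0% held a protein-coding gene, and no RNA tag came from 55.0%. A protein-coding gene was annotated in 43 of 64 Input far bins (67.2%) and 152 of 210 H3K27me3-RADIP far bins (72.4%), against 75.9% of the 2624 far bins with any listed pair and 59.1% of all 5246 far bins with known sequence. No RNA tag of any gene came from 35.9% and 32.4% of the *Tenm4* far bins, from 27.8% of the far bins with any listed pair and from 61.1% of all far bins. Median GC content was 44.0% and 45.8%, against 45.6% and 42.7%. The *Tenm4* pairs in these bins came from many RNA positions, 604 for 666 pairs and 1943 for 2270 pairs. Repeated pairs were 8.26% and 12.3% of them, somewhat above the 6.38% and 8.83% of the other *cis* pairs.

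The RNA ends of far pairs came more often from the first part of the gene. Over 5 Mb, the first of the 5 parts supplied 30.6% (27.2 to 34.2%) of Input pairs and 698 of 2323 H3K27me3-RADIP pairs (28.2 to 31.9%), and the last part 6.32% (4.73 to 8.41%) and 6.20% (5.29 to 7.25%). Within 100 kb, the first part supplied 23.3% (21.5 to 25.1%) and 19.6% (18.0 to 21.2%) and the last 13.8% (12.4 to 15.3%) and 14.4% (13.1 to 15.9%). Read the other way, 9.82% of Input pairs from the first part and 4.95% of those from the last were over 5 Mb, and in H3K27me3-RADIP 24.6% and 12.7%. RNA from the first part paired outside the gene somewhat more often upstream, with 57.9% (55.2 to 60.5%) of such Input pairs and 54.7% (52.5 to 56.9%) of those in H3K27me3-RADIP. For the last part these were 46.4% (42.0 to 50.9%) and 45.5% (41.7 to 49.4%).

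Only 1 *Tenm4* bin was in *trans*, on another chromosome. It lay at 3150001 to 3175000 of chromosome 11, over *Sfi1*, a centrosome protein gene, and had 10 pairs in H3K27me3-RADIP from 10 RNA positions, with a q-value of 0.00782. No *trans* bin was listed in Input, where a bin with up to 8 pairs would not be listed. Many other RNAs met the *Sfi1* bin. In H3K27me3-RADIP 28 RNAs from other chromosomes were listed there, the most of 400 bins with *trans* pairs, and in Input 9, the most of 408. The median such bin had 1.

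Few other RNAs had listed bins as far. A bin is listed only with enough pairs, so an RNA with few pairs can hardly show far bins. The counts and ranks here therefore depend on the number of pairs of each RNA. In Input 53 RNAs had a *cis* bin over 5 Mb from their gene and in H3K27me3-RADIP 95. *Tenm4* accounted for 64 of the 429 far combinations of Input (14.9%, 11.9 to 18.6%) and 210 of 1760 in H3K27me3-RADIP (11.9%, 10.5 to 13.5%), the third and the second highest number of any RNA. Among 481 RNAs with at least 500 pairs in each table, its share of pairs over 5 Mb ranked 3 in Input and 1 in H3K27me3-RADIP, where the median RNA had 0. Of the 52 such RNAs with pairs over 5 Mb in Input, 47 had a higher share in H3K27me3-RADIP and 5 a lower one. The difference for *Tenm4*, 12.2 percentage points, ranked 3 of the 481. These differences cover listed pairs only. Over 5 Mb from *Tenm4* the ratio of shares was 1.00 in the bins listed in both tables. It was 0.958 with unlisted bins at their highest possible number.

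**Figure D5:**
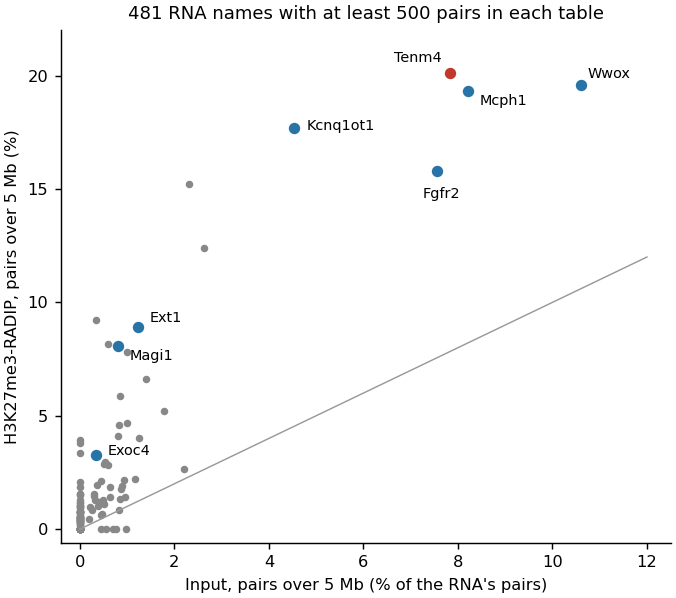
Pairs over 5 Mb as a percentage of the pairs of each RNA, in Input (x axis) and H3K27me3-RADIP (y axis), for 481 RNA names with at least 500 pairs in each table. *Tenm4* is red, *Wwox*, *Kcnq1ot1*, *Exoc4*, *Fgfr2*, *Mcph1*, *Ext1* and *Magi1* are blue, and all others are grey. The line marks equal shares. *Tenm4*, *Wwox*, *Mcph1*, *Kcnq1ot1* and *Fgfr2* stand at the top, between 15.8% and 20.1% in H3K27me3-RADIP.

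The RNAs whose spread over 6 distance classes was most like that of *Tenm4*, by the share of pairs falling in the same classes averaged over both tables, were *Fgfr2* (93.2%), *Mcph1* (92.4%), *Kcnq1ot1* (91.6%), *Ext1* (90.5%) and *Magi1* (89.8%). *Fgfr2*, which encodes a fibroblast growth factor receptor and is also on chromosome 7, had 7.56% of its pairs over 5 Mb in Input and 15.8% in H3K27me3-RADIP. Its annotated gene is 2961 kb long, against 740 kb for *Tenm4*, so its pairs over 1 Mb can lie within the gene. *Mcph1*, a gene for a chromosome condensation factor on chromosome 8, had 8.21% and 19.3%. *Kcnq1ot1*, the long noncoding RNA of an imprinted domain on chromosome 7 that Polycomb marks, had 4.54% and 17.7%, with its pairs in all at a ratio of shares of 1.92 (1.86 to 1.98). *Wwox*, an oxidoreductase gene at a fragile site, had 10.6% and 19.6% and a ratio of 1.44 (1.40 to 1.48). *Exoc4*, an exocyst subunit gene whose length of 725 kb is close to that of *Tenm4*, had 0.330% and 3.28% and a ratio of 0.903 (0.874 to 0.932).

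Other RNAs were listed in most far bins of *Tenm4*, but no single RNA in many. In H3K27me3-RADIP *Fgfr2* RNA was listed in 22 of the 210 bins (10.5%, and 4.07% of the 541 bins of *Fgfr2* on the chromosome), and RNA of *Tead1*, a Hippo pathway transcription factor gene, in 19 (9.05%, and 13.3% of its 143). *Kcnq1ot1* RNA was in 11 (5.24%, and 2.70% of its 408), *Arnt2* in 9 of its 15 and *Igf1r* in 9 of its 40. The order differed in Input, where *Arnt2* and *Tead1* were each in 4 of the 64 bins, *Kcnq1ot1* in 1, and *Fgfr2* and *Igf1r* in 0. No other RNA was listed in 34 of the 210 bins (16.2%) in either table, and in 13 of the 64 Input far bins (20.3%). Over all far bins of the chromosome this share was 50.8%.

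Of 11 other teneurin genes and partners of teneurins 10 were listed in either table, all but *Flrt3*. None had a listed pair over 5 Mb, as was so for nearly all RNAs: only 53 of 10176 RNA names in Input and 95 of 10660 in H3K27me3-RADIP had a *cis* bin that far. All had far fewer pairs than the 8679 and 11573 of *Tenm4*, and far pairs of such RNAs can stay under the listing limit. *Tenm3*, the nearest in number of pairs, had 956 in 47 bins in Input and 1127 in 50 bins in H3K27me3-RADIP, with 0 and 8 pairs over 1 Mb. *Tenm2* had 223 and 381 pairs, a ratio of shares of 1.58 (1.33 to 1.87), with 5 and 0 pairs over 1 Mb. *Tenm1*, on the X chromosome, had 112 and 58, a ratio of 0.478 (0.342 to 0.662). Among the latrophilin genes, *Adgrl1* had 287 and 430 pairs, *Adgrl2* 114 and 91, and *Adgrl3* 37 and 11. *Ptk2*, the focal adhesion kinase gene, had 739 and 712, with 0 and 11 over 1 Mb. *Flrt1* had 12 and 12, *Flrt2* had 9 in Input only and *Mbd1*, a methyl-CpG binding protein gene, 7 in H3K27me3-RADIP only. Of the 8 genes listed in both tables, 1 had a log2 ratio of at least 0.5, as did 17.5% of all RNAs in both tables, and 2 of at most -0.5, as did 25.5%. Their median log2 ratio was -0.14, against -0.09 over all RNAs.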

How the data were processed

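The members and the lists of genes were chosen with earlier results of these data known. The deposited tables have 15 columns without a header, 1 line per RNA–DNA pair. Per the submitters' processing notes CASAVA 1.8.2, STAR 2.5.0a and BWA 0.7.15-r1140 were used, and per the study's methods tags were placed on mm10, replicates were merged, and the authors computed a p-value and a q-value for each RNA and 25-kb bin with a modified CHiCANE model, keeping q-values up to 0.1. No model was refitted. A pair was therefore seen only if its bin passed. Tag windows are 25 bases with 1-based centres; the bin is that of the DNA tag centre. Per-sample columns not used numbered 0.

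Shares have Wilson intervals and ratios exact conditional binomial intervals (Python 3.11.15, numpy 2.4.6, pandas 2.3.3, scipy 1.17.1, matplotlib 3.10.9), tested on simulated pairs. Ratios divide by the pairs of each table. Genes and exons came from GENCODE M21, sequence from GRCm38 of RefSeq; both *Tenm4* starts and both microRNA genes were matched by symbol. Named were *Tenm4*, the 5 RNAs most like it by distance class among those with at least 500 pairs, the 5 sharing most of its far bins, genes in the 5 highest bins outside the gene and over 5 Mb per table, genes in the *trans* bin, genes within *Tenm4*, a list of teneurins and partners (1 item of it is not reported here), and *Kcnq1ot1*, *Wwox* and *Exoc4*. Genes named in the far bins shared by both tables, from 1 to 5 Mb downstream and from 3 to 5 Mb upstream fall outside this rule and were chosen after their values were seen, apart from those the rule also names. Alternatives changed the q-value limit, repeated pairs, the pairs per bin, the totals, the distance measure, the far limit and the rule for shared bins.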

Additional observations from a re-analysis of the deposited data

How the results depend on the processing

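The direction between the tables held for the overall ratio and for the shares over 1 and 5 Mb under the alternatives run for them. None of these set unlisted bins at their highest possible number or kept only shared bins. For pairs over 5 Mb from the gene those 2 settings gave ratios of 0.958 and 1.00. Whether the overall ratio and the shares depend on which bins were listed was thus not tested. The overall ratio was 1.12 with bins of at least 15 pairs and 1.33 from raw numbers. The share over 1 Mb (Input, then H3K27me3-RADIP) was 30.4% and 38.6% at a q-value up to 0.01, 18.9% and 21.8% with bins of at least 15 pairs, 25.4% and 37.6% by the distance of the bin from the gene, and 71.9% and 82.3% with each bin counted once. The share over 5 Mb was 5.57% and 15.2% at a q-value up to 0.01, 0.492% and 2.34% with bins of at least 15 pairs, and 22.8% and 47.6% with each bin counted once; a limit of 10 Mb gave 6.37% and 17.9%, and one of 2 Mb 17.5% and 31.3%. Bins in one table only were 15.9% and 25.2% with at least 15 pairs, and 14.7% and 41.7% when a neighbouring bin counted as shared. With at least 15 pairs the *trans* bins of H3K27me3-RADIP fell to 0. RNA ends in the first part of the gene were 25.9% and 27.9% of pairs over 1 Mb; in H3K27me3-RADIP they were 22.9% with at least 15 pairs and 26.3% for DNA outside the gene.

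The ratios by side of the gene and their alternatives were chosen after seeing the data. Bins listed in both tables gave 0.770 for 1 to 3 Mb upstream, 1.23 for 1 to 5 Mb downstream and 1.00 over 5 Mb. With unlisted bins at 8 pairs these were 0.815, 1.19 and, turned in direction, 0.958. Apart from the effect that fewer bins enter, the cause was not tested. Of 70 alternatives over 15 results, 35 left the value within its interval.

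No paired analysis was possible because the authors merged the replicates, which also leaves no replicate to omit. Far bins held at most 21 pairs, near the limit of 9.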
